A study of Mus musculus with 9 samples.

Results

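Transcripts of 10 genes of sarcoplasmic reticulum calcium cycling were followed across bulk RNA sequencing libraries of the mouse atrioventricular (AV) node, the tissue that relays the impulse between atria and ventricles. The genes were picked by symbol (Ryr2, Trdn, Casq2, Casq1, Hrc, Atp2a2, Pln, Sln, Slc8a1 and Jph2) out of 34198 symbols in the deposited table, and all 10 were listed and passed the filter on low values described below. Microdissected nodes of C57BL/6J mice gave 9 libraries. There were 3 of macrophage-depleted Cd11bDTR mice, 3 of Cx3cr1 Cx43-/- mice and 3 of control mice. Cd11bDTR mice carry the diphtheria toxin receptor under the promoter of Cd11b, which is also active in other myeloid cells. In Cx3cr1 Cx43-/- mice, connexin 43 (Gja1), a gap junction protein, is lost from Cx3cr1-expressing cells, among them macrophages. Age, sex, toxin dose, the time between depletion and dissection, and the alleles of the control mice are not given in the sources used here. The submitters describe biological replicates, and whether a library pools several nodes is not given.

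In heart muscle, calcium that enters the cell opens ryanodine receptors on the sarcoplasmic reticulum, and the calcium they release drives contraction. A pump, SERCA, returns the calcium to the store, where calsequestrin buffers it, and an exchanger in the plasma membrane removes the part that entered. In pacemaker and nodal cells, spontaneous release of this store together with the exchanger is held to add to the diastolic depolarisation.

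The values are CPM (read counts scaled to library depth) as the authors deposited them, rounded to 2 decimals. Estimated from the spacing of the low values, 1 read was worth about 0.0154 to 0.0192 CPM, so that 1 CPM rested on about 52.1 to 65.0 reads. The lowest value of any of the 10 genes was 12.43 CPM. Tests were run with limma on log2(CPM + 0.5) over the 12925 genes that reached 1 CPM in 3 or more libraries, in a single model of all 9 libraries. Genes with a p under 0.05 after Benjamini-Hochberg adjustment over all genes tested are named called. Log2 changes are differences on that scale, the first group named minus the second, and errors beside them are standard errors (SE).

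The listed genes took 44.0%, 37.7% and 28.3% of the CPM total in Cd11bDTR libraries 7, 8 and 9, against 46.8% to 47.9% in Cx3cr1 Cx43-/- and 42.8% to 48.7% in control libraries. The median log2 change of all genes tested was -0.49 for Cd11bDTR against control and -0.58 against Cx3cr1 Cx43-/-. It was 0.07 for Cx3cr1 Cx43-/- against control. Changes in Cd11bDTR nodes were therefore also computed after rescaling the libraries to a common total, by median-of-ratios size factors, by quantile normalization, and to the summed level of 12 sarcomere genes; with the deposited scale these make 5 scalings. The macrophage markers summed to 66.6 to 75.7 CPM in Cd11bDTR, 394 to 527 CPM in Cx3cr1 Cx43-/- and 254 to 404 CPM in control libraries, and 9 of 12 were called lower in Cd11bDTR than in control. Of all genes tested, 33.0% were called lower in that comparison. Gja1, measured over the whole tissue, stood at 56.75 to 89.92 CPM in Cd11bDTR, 179.21 to 249.99 CPM in Cx3cr1 Cx43-/- and 163.09 to 246.48 CPM in control libraries, which does not check a deletion limited to Cx3cr1-expressing cells. Markers of the AV node were present in every group, among them Hcn4, the pacemaker channel, at 1.80 to 3.80 CPM in Cd11bDTR, 15.54 to 19.91 CPM in Cx3cr1 Cx43-/- and 15.45 to 19.26 CPM in control libraries. Isl1, another gene on that list, was at or near 0 in all 9. The AV node markers summed to 85.2 to 145 CPM in Cd11bDTR, 347 to 450 CPM in Cx3cr1 Cx43-/- and 427 to 538 CPM in control libraries. The sarcomere genes summed to 18983 to 30850 CPM in Cd11bDTR, 35046 to 36139 CPM in Cx3cr1 Cx43-/- and 34386 to 35659 CPM in control libraries. Of these 12 genes, 3 were called lower and 0 higher in Cd11bDTR than in control, with a median change of -0.51. Des and Tnnc1 had higher means in Cd11bDTR (1438 and 2065 CPM) than in control (1065 and 1646 CPM), without a call. In bulk tissue, fewer cells of a type and less RNA per cell cannot be told apart.

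Of the 10 genes, 6 were called lower and 0 higher in Cd11bDTR than in control nodes. They were Atp2a2, Pln, Casq1, Casq2, Hrc and Jph2. Among all genes tested, 33.0% were called lower and 3.23% higher in that comparison. The median change of the 10 genes was -0.86, against -0.49 for all genes. Relative to Cx3cr1 Cx43-/- nodes, 7 were called lower and 0 higher, the same 6 and Slc8a1, where 40.7% of all genes were called lower and 2.69% higher. The median there was -0.996, against -0.58 for all genes. Both comparisons use the same Cd11bDTR libraries. Between Cx3cr1 Cx43-/- and control nodes limma called 0 of the 10, and 0.00774% of all genes tested (1 gene), with 1 of the 10 at an unadjusted p under 0.05. The spread in that test was pooled over all 9 libraries, those of Cd11bDTR included. For Jph2 the SD was 50.9 CPM in Cd11bDTR, 1.71 in Cx3cr1 Cx43-/- and 18.1 in control. So few calls there do not show that the 2 groups are alike. A fit of these 2 groups alone also called 0 of the 10. Together the 10 genes held 1.86% ± 0.12 of the reads in listed genes in Cd11bDTR, 2.71% ± 0.15 in Cx3cr1 Cx43-/- and 2.62% ± 0.20 in control libraries (SD, n = 3 each). Atp2a2 was the largest part of this share, at a mean of 4214, 8203 and 7386 CPM in the same order. The share therefore follows that gene more than the set. Markers of macrophages, of the AV node and of the sarcomere, and the share of reads in listed genes, moved with these members in Cd11bDTR libraries, and their part in the changes was not tested.

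**Figure D1:**
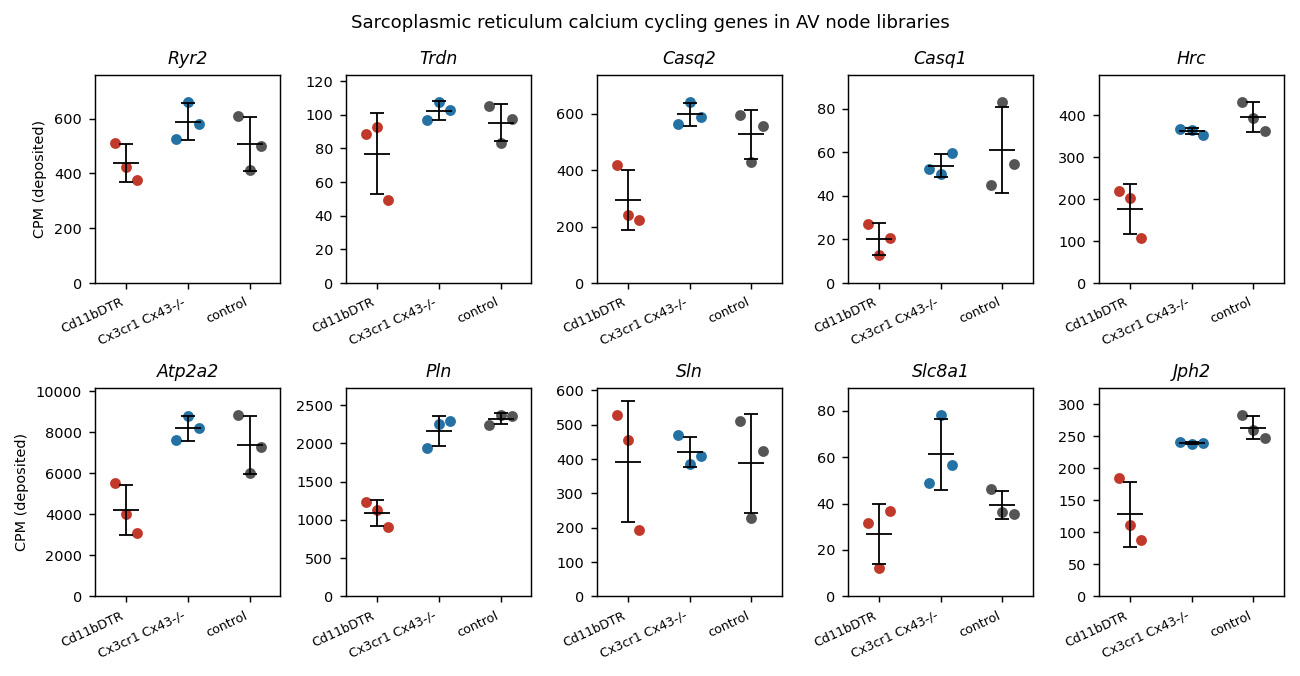
Deposited CPM (y axes, from 0) of the 10 genes in each library, with Cd11bDTR in red, Cx3cr1 Cx43-/- in blue and control in grey; dots are libraries, and bars give the mean and SD of 3 libraries. All Cd11bDTR libraries lie below all control libraries for Casq2, Casq1, Hrc, Atp2a2, Pln and Jph2, and the groups overlap for Ryr2, Trdn, Sln and Slc8a1.

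Casq1, Hrc, Jph2 and Pln are the 4 genes that were called lower in Cd11bDTR than in control under each of the 5 scalings, and their promoter windows are shown for that reason. RefSeq windows of build GRCm38.p6 run from 250 bases before to 50 bases after the gene's start. They were matched by symbol for 7 of the 10 genes, namely these 4 and Ryr2, Casq2 and Slc8a1. The windows are Casq1 at chr1:172219846-172220145, minus strand, Hrc at chr7:45335019-45335318, plus strand, Jph2 at chr2:163397944-163398243, minus strand, and Pln at chr10:53337436-53337735, plus strand. Each is written 5′ to 3′ on the gene's strand, and capitals mark the hexamer CAGCTG, a form of the E-box that basic helix-loop-helix factors can bind.
Casq1: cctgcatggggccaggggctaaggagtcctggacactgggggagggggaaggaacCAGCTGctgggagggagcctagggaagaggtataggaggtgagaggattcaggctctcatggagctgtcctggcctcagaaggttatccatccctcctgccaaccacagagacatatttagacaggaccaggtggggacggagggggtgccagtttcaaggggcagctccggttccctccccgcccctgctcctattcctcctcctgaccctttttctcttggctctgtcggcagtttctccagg
Hrc: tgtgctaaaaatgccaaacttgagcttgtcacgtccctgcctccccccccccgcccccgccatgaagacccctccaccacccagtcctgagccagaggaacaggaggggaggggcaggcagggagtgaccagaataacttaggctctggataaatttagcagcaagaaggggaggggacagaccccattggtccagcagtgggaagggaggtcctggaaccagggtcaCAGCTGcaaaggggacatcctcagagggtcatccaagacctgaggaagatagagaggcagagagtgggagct
Jph2: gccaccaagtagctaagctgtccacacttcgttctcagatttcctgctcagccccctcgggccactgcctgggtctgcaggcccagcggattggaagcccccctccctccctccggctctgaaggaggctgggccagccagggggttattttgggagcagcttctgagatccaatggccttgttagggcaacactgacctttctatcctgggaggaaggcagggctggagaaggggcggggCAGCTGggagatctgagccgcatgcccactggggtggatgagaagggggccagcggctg
Pln: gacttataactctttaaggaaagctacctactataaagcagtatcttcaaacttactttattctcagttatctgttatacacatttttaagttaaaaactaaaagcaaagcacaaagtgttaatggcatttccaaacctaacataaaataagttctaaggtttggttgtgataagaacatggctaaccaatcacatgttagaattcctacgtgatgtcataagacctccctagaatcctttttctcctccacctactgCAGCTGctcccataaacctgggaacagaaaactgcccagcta

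The hexamer CAGCTG, which reads the same on both strands, starts 195 bases before the gene's start in Casq1, 22 bases before it in Hrc, 9 bases before it in Jph2 and 8 bases after it in Pln. A second RefSeq start of Jph2 puts the same hexamer 29 bases before it. It was present in the windows of these 4 genes and not in those of Ryr2, Casq2 and Slc8a1, and 16.3% of all 32851 promoter windows hold it. The hexamer was singled out after the windows had been read, and no test goes with it. The wider E-box CANNTG, which contains it, was present in all 7 windows and in 72.3% of all windows. All motifs were searched on both strands. The site AGATAA, bound by zinc-finger factors of the Gata family, was found in Pln and Slc8a1 and in 11.2% of all windows. TATAAA was found in Pln and in 13.6% of all windows. The T-box core AGGTGT was found in 0 of the 7 and in 13.7% of all windows. The MEF2 motif by its usual consensus was found in Casq2 and in 3.19% of all windows, and the CArG box in 0 of the 7 and in 1.63%. A match describes letters in these windows only.

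The release channel and its partners in the junctional store differed among themselves. Ryr2, which encodes the cardiac ryanodine receptor, had 511.51, 424.09 and 375.78 CPM in Cd11bDTR, 525.13, 661.86 and 580.71 CPM in Cx3cr1 Cx43-/- and 608.17, 413.17 and 498.90 CPM in control libraries. Control library 2 lay below 2 of the 3 Cd11bDTR libraries, so these groups overlapped, while every Cx3cr1 Cx43-/- library lay above every Cd11bDTR library. The log2 change from limma was -0.21 ± 0.22 for Cd11bDTR against control (95% interval -0.67 to 0.26, adjusted p = 0.480). It was -0.44 ± 0.22 against Cx3cr1 Cx43-/- (adjusted p = 0.115), and was called without Cd11bDTR library 7 (-0.55, adjusted p = 0.0269) and with library quality weights (-0.45, adjusted p = 0.0136). After rescaling, the sign of Ryr2 against control turned, to 0.13 with a common total, 0.29 with median-of-ratios factors, 0.037 with quantile normalization and 0.37 with the sarcomere sum, and none of these passed the threshold (adjusted p from limma between 0.0950 and 0.872). With the common total Ryr2 held 502, 485 and 573 rescaled CPM in Cd11bDTR, against 539, 417 and 475 in control libraries.

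Trdn encodes triadin, which ties calsequestrin to the ryanodine receptor. It had 88.70, 92.68 and 49.26 CPM in Cd11bDTR, 96.62, 107.73 and 102.97 CPM in Cx3cr1 Cx43-/- and 105.17, 83.23 and 97.67 CPM in control libraries. Cd11bDTR library 9 was far below the other two, which reached into the control range. The log2 change of Trdn was -0.36 ± 0.23 against control (95% interval -0.82 to 0.11, limma adjusted p = 0.213) and -0.46 ± 0.23 against Cx3cr1 Cx43-/- (adjusted p = 0.0949), and was not called in either. Without Cd11bDTR library 7 the second comparison was called at -0.59 (adjusted p = 0.0351). Its sign against control was positive with median-of-ratios factors (0.14) and with the sarcomere sum (0.21). Ryr2 and Trdn were among the closest pairs of the 10, with a root mean square difference of 0.20 on the log2 scale over 9 libraries after each gene was centred on its mean.

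Casq2, the cardiac calsequestrin and main calcium buffer of the store in heart, had 418.20, 239.99 and 223.87 CPM in Cd11bDTR, 562.11, 641.82 and 586.72 CPM in Cx3cr1 Cx43-/- and 595.07, 430.15 and 554.72 CPM in control libraries. The highest Cd11bDTR value was just under the lowest control value, and the groups did not overlap. Casq2 was lower by a log2 change of -0.89 ± 0.24 against control (limma adjusted p = 0.00714) and -1.08 ± 0.24 against Cx3cr1 Cx43-/- (adjusted p = 0.00147). Against control the call was lost with median-of-ratios factors (-0.39, adjusted p = 0.0597), with the sarcomere sum (-0.31, adjusted p = 0.129) and with no filter on low values (adjusted p = 0.0616). Relative to Cx3cr1 Cx43-/- it held under each of the 5 scalings, between -1.08 and -0.48.

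Casq1, the calsequestrin of skeletal muscle, was the gene with the widest range, 6.52-fold between its highest and lowest library. It had 27.33, 12.76 and 20.87 CPM in Cd11bDTR, 52.17, 49.90 and 59.66 CPM in Cx3cr1 Cx43-/- and 45.00, 83.24 and 54.74 CPM in control libraries. The highest Cd11bDTR library stood at 27.33 CPM and the lowest of the others at 45.00 CPM. The log2 change was -1.58 ± 0.26 against control (fold 0.335, 95% interval 0.232 to 0.483, limma adjusted p = 8.85e-05) and -1.45 ± 0.26 against Cx3cr1 Cx43-/- (adjusted p = 0.000197). It was called under each of the 5 scalings and without each library in turn, and the change against control ran from -1.58 on the deposited scale to -1.02 with the sarcomere sum. Genes that define fast skeletal muscle (Mylpf, Tnnt3, Tnni2, Tnnc2, Myh1, Myh2, Myh4 and Actn3) were at or near 0, with 3.42 CPM of Tnni2 the highest value in any library. The remaining 4 of the 12 skeletal muscle markers were Acta1, Ckm and Mb, also transcribed in heart, and Pvalb at 0.82 to 12.90 CPM. The 12 markers summed to 2955 to 4811 CPM in Cd11bDTR, 5355 to 6138 CPM in Cx3cr1 Cx43-/- and 5458 to 6762 CPM in control libraries, and of the 5 tested 2 were called lower and 1 higher in Cd11bDTR than in control. Among all genes tested, 33.0% were called lower and 3.23% higher there.

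Hrc encodes the histidine-rich calcium-binding protein of the store lumen, a partner of both triadin and SERCA. It had 218.77, 201.84 and 107.90 CPM in Cd11bDTR, 366.05, 364.19 and 352.67 CPM in Cx3cr1 Cx43-/- and 431.69, 392.16 and 361.89 CPM in control libraries. Cd11bDTR library 9 was the lowest of all, and no Cd11bDTR library came near the range of the other groups. The log2 change was -1.23 ± 0.24 against control (fold 0.428, 95% interval 0.305 to 0.5998, limma adjusted p = 0.000485) and -1.10 ± 0.24 against Cx3cr1 Cx43-/- (adjusted p = 0.00107). Hrc was called in both comparisons under each of the 5 scalings and without each library in turn. With the sarcomere sum its change against control was -0.65 ± 0.15 (adjusted p = 0.00621).

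Uptake into the store rests on SERCA and its small inhibitors. Atp2a2, the SERCA2 gene, had the highest level of the 10, with 5525.06, 4012.40 and 3105.04 CPM in Cd11bDTR, 7604.65, 8811.45 and 8192.63 CPM in Cx3cr1 Cx43-/- and 8842.44, 6038.56 and 7277.88 CPM in control libraries. The groups did not overlap, though control library 2 was close to the highest Cd11bDTR library. The change against control was -0.83 ± 0.32 (95% interval -1.50 to -0.17) at a limma adjusted p of 0.0470. It was called on the deposited scale and in none of the other 4 scalings, where adjusted p ran from 0.0525 with the common total to 0.736 with quantile normalization. Quantile normalization ties a value to its rank in the library. There Atp2a2 gave -0.09 against each of the other groups and 0 between those groups. At so high a level that scaling leaves little room for a change, and its lost calls decide little. The call was also lost without control library 1 (-0.69, adjusted p = 0.207) or 3 (-0.83, adjusted p = 0.128), without any 1 of the Cx3cr1 Cx43-/- libraries (adjusted p from 0.0715 to 0.0781), and without Cd11bDTR library 8 (-0.82, adjusted p = 0.0788). It was lost with no filter (adjusted p = 0.569) and in a fit of the 2 groups alone (adjusted p = 0.137). The change against Cx3cr1 Cx43-/- was -0.998 ± 0.32 (adjusted p = 0.0168) and was kept with the common total. It was lost with median-of-ratios factors (-0.42, adjusted p = 0.148), quantile normalization (-0.09, adjusted p = 0.733) and the sarcomere sum (-0.40, adjusted p = 0.145), with no filter (adjusted p = 0.461), in a fit of the 2 groups (adjusted p = 0.0510), and without Cx3cr1 Cx43-/- library 5 (adjusted p = 0.0779) or 6 (adjusted p = 0.0616).

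Pln encodes phospholamban, which holds SERCA2 back until it is phosphorylated. It had 1240.16, 1127.53 and 911.75 CPM in Cd11bDTR, 1942.91, 2255.87 and 2297.47 CPM in Cx3cr1 Cx43-/- and 2243.47, 2372.07 and 2358.64 CPM in control libraries. Control libraries were close to each other, and every Cd11bDTR library was far below them. The change was -1.10 ± 0.25 against control (fold 0.467, 95% interval 0.326 to 0.667, limma adjusted p = 0.00197) and -0.99 ± 0.25 against Cx3cr1 Cx43-/- (adjusted p = 0.00358). Against control Pln was called under each of the 5 scalings and without each library in turn, and lost with no filter (adjusted p = 0.0859). The call against Cx3cr1 Cx43-/- was lost with median-of-ratios factors (-0.42, adjusted p = 0.0642), the sarcomere sum (-0.39, adjusted p = 0.0792) and no filter (adjusted p = 0.101).

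Sln encodes sarcolipin, a SERCA inhibitor that in the mouse heart is made mainly in the atria. It had 528.33, 455.36 and 193.13 CPM in Cd11bDTR, 469.17, 384.63 and 409.29 CPM in Cx3cr1 Cx43-/- and 512.01, 228.37 and 422.16 CPM in control libraries. The highest and the lowest of all 9 values were both Cd11bDTR libraries, so the groups overlapped. The change against control was -0.03 ± 0.31 (95% interval -0.67 to 0.61, limma adjusted p = 0.947), and with the other 4 scalings it was positive, between 0.24 and 0.54, without a call. The value against Cx3cr1 Cx43-/- was -0.22 ± 0.31 (adjusted p = 0.570), again with a positive sign in the other 4 scalings.

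The lowest Sln values stood beside the lowest levels of atrial markers. The 8 atrial marker genes, among them Nppa and Myl7, summed to 6074, 4574 and 2931 CPM in Cd11bDTR, 7814, 5750 and 5951 CPM in Cx3cr1 Cx43-/- and 7073, 4069 and 6037 CPM in control libraries. Cd11bDTR library 9 and control library 2 held both the lowest Sln values and the lowest atrial sums. Cd11bDTR library 8 went the other way, with the next lowest atrial sum (4574 CPM) and 455.36 CPM of Sln. That was above the 422.16 CPM of control library 3, whose atrial sum was 6037 CPM. Of this list 2 of the 7 genes tested were called lower in Cd11bDTR than in control, where 33.0% of all genes tested were called lower. For Casq1, the 7 ventricular markers, among them Myl2, summed to 3595, 3504 and 2565 CPM in Cd11bDTR, 5146, 5062 and 5543 CPM in Cx3cr1 Cx43-/- and 4493, 7059 and 5867 CPM in control libraries, and 5 of 7 were called lower in Cd11bDTR than in control. Control library 2 held the highest Casq1 and the highest ventricular sum, while the lowest Casq1 (12.76 CPM) was in Cd11bDTR library 8 and the lowest ventricular sum in Cd11bDTR library 9, where Casq1 stood at 20.87 CPM. The part of chamber muscle in these levels was not tested.

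**Figure D2:**
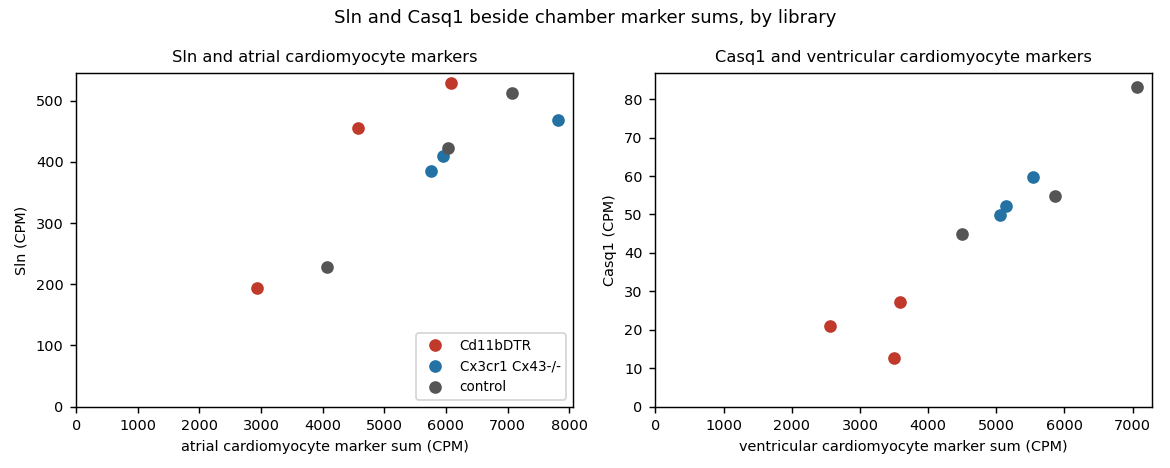
Deposited CPM of Sln (left) against the summed CPM of the atrial markers, and of Casq1 (right) against the summed CPM of the ventricular markers, 1 dot per library, with Cd11bDTR in red, Cx3cr1 Cx43-/- in blue and control in grey. The lowest Sln values, 193.13 and 228.37 CPM, stand at the lowest atrial sums, but the library with the next lowest atrial sum has 455.36 CPM of Sln. The highest Casq1 value, 83.24 CPM, stands at the highest ventricular sum, and the lowest, 12.76 CPM, is not at the lowest ventricular sum.

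Slc8a1 encodes the sodium-calcium exchanger NCX1 of the plasma membrane. It had 31.63, 12.43 and 36.77 CPM in Cd11bDTR, 48.81, 78.18 and 56.76 CPM in Cx3cr1 Cx43-/- and 46.23, 36.43 and 35.41 CPM in control libraries. Cd11bDTR library 9 lay above control libraries 2 and 3, and all Cx3cr1 Cx43-/- libraries lay above all libraries of both other groups. For Cx3cr1 Cx43-/- against control the change was 0.61 ± 0.29 (95% interval 0.01 to 1.21), at an unadjusted p of 0.0456 and an adjusted p of 1 from limma. Higher in 3 of 3 libraries, it did not pass the correction over all genes in any scaling, and without Cx3cr1 Cx43-/- library 5 the change was 0.43. On the deposited scale, Slc8a1 and Jph2 were the members whose Cx3cr1 Cx43-/- and control libraries did not overlap, Slc8a1 higher and Jph2 lower. Of all genes tested, 5.94% were higher and 3% lower without overlap.

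Cd11bDTR against control gave Slc8a1 a change of -0.67 ± 0.29 (limma adjusted p = 0.0746), which was not called. The change without Cd11bDTR library 8, the lowest, was -0.19. Without library 7 it was called at -0.85 (adjusted p = 0.0428), without library 9 at -0.96 (adjusted p = 0.0318) and with library quality weights at -1.36 (adjusted p = 0.000530). The change against Cx3cr1 Cx43-/- was -1.28 ± 0.29 (adjusted p = 0.00165), and -0.81 without Cd11bDTR library 8. That call was lost with the common total (-0.90, adjusted p = 0.0533), median-of-ratios factors (-0.71), quantile normalization (-0.82, adjusted p = 0.0601) and the sarcomere sum (-0.69, adjusted p = 0.119).

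Jph2 encodes junctophilin-2, which holds the store membrane close to the plasma membrane at sites of calcium release. It had 185.56, 111.88 and 87.99 CPM in Cd11bDTR, 241.15, 237.83 and 240.19 CPM in Cx3cr1 Cx43-/- and 283.22, 260.20 and 247.41 CPM in control libraries. Cx3cr1 Cx43-/- libraries spanned only 1.01-fold, against 2.11-fold in Cd11bDTR, and the 3 groups were in separate ranges. The change was -1.10 ± 0.23 for Cd11bDTR against control (fold 0.466, 95% interval 0.335 to 0.647, limma adjusted p = 0.000983) and -0.97 ± 0.23 against Cx3cr1 Cx43-/- (adjusted p = 0.00236). Jph2 was called in both under each of the 5 scalings and without each library in turn. For Cx3cr1 Cx43-/- against control the change was -0.13 ± 0.23 (95% interval -0.61 to 0.34, adjusted p = 1). Jph2 and Hrc were the second closest pair of the 10, at a root mean square difference of 0.17, after Atp2a2 and Casq2 at 0.10.

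**Figure D3:**
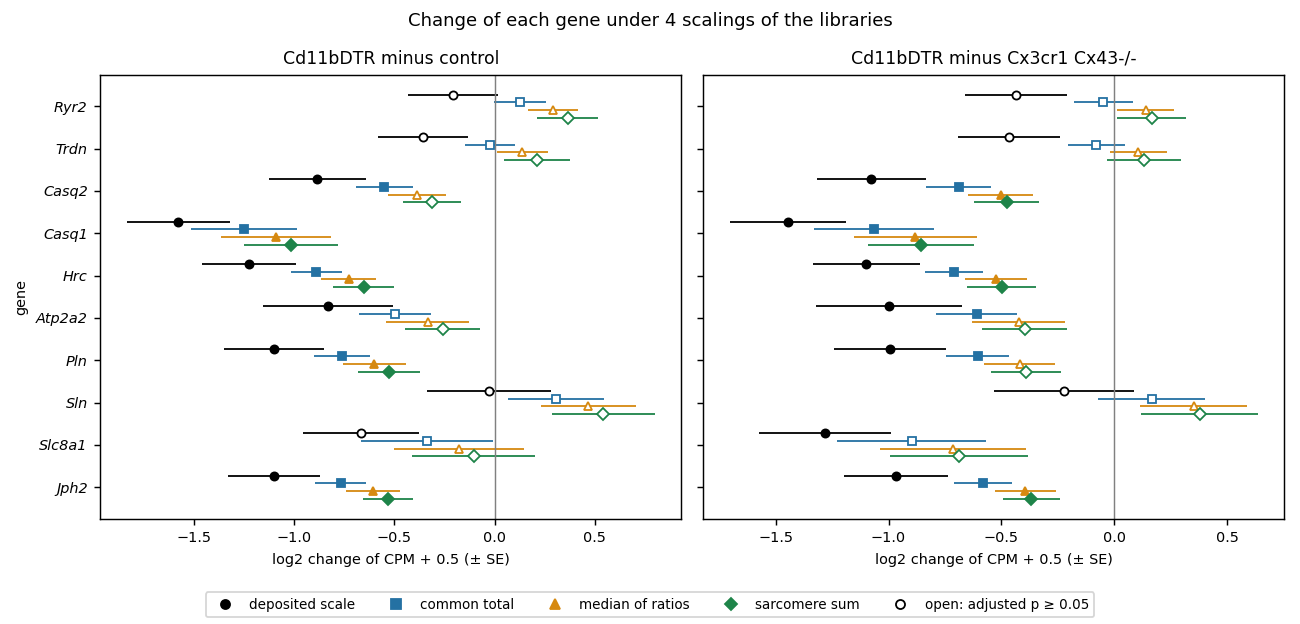
Log2 change of CPM + 0.5 (x axis, ± SE) of each gene in Cd11bDTR minus control (left) and Cd11bDTR minus Cx3cr1 Cx43-/- (right), on the deposited scale and with 3 rescalings of the libraries; filled symbols have an adjusted p under 0.05. Rescaling moves all genes to the right, and Casq1, Hrc, Pln and Jph2 stay filled in the left panel, where Ryr2, Trdn and Sln cross 0 with at least 1 rescaling.

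The scaling moved the counts as follows. Against control, 5 of the 10 genes were called lower with the common total (19.6% of all genes tested), 4 with median-of-ratios factors (12.8%), 5 with quantile normalization (14%) and 4 with the sarcomere sum (9.35%). The counts against Cx3cr1 Cx43-/- were 6 (20.9%), 4 (12.7%), 5 (13.8%) and 4 (10.5%). In none of these scalings was a member called higher, where 8.79%, 13.3%, 12.2% and 13.9% of all genes were called higher against control, in the same order, and 8.47%, 13.3%, 12.1% and 12.5% against Cx3cr1 Cx43-/-. On the deposited scale, libraries of Cd11bDTR lay wholly below those of control for 6 of the 10 genes, against 38.0% of all genes tested. They lay below those of Cx3cr1 Cx43-/- for 9, all but Sln, against 50.6%. With median-of-ratios factors, Casq2 overlapped with control, and Ryr2, Slc8a1 and Trdn overlapped with Cx3cr1 Cx43-/-. Ryr2 then lay wholly above control, at 524 to 606 rescaled CPM in Cd11bDTR and 413 to 495 in control libraries. Within Cd11bDTR, library 9 had the lowest value of 8 members and library 7 the highest of 8, in the order of their share of reads in listed genes. Control library 1 had the highest control value of 8 members.

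Ratios of 2 members within a library do not depend on how the library is scaled, apart from the 0.5 added before the log. Ryr2 stood at 9.26%, 10.6% and 12.1% of the CPM of Atp2a2 in Cd11bDTR libraries, 6.91%, 7.51% and 7.09% in Cx3cr1 Cx43-/- and 6.88%, 6.84% and 6.86% in control. Control libraries were nearly alike in this ratio although Atp2a2 itself differed 1.46-fold among them, and every Cd11bDTR library was higher. The difference of log2 ratios was 0.63 against control and 0.56 against Cx3cr1 Cx43-/-, and 0.06 for Cx3cr1 Cx43-/- against control, each without overlap. Sln relative to Atp2a2 stood at 9.56%, 11.3% and 6.22% in Cd11bDTR, 6.17%, 4.37% and 4.996% in Cx3cr1 Cx43-/- and 5.79%, 3.78% and 5.80% in control. These groups also did not overlap, with differences of 0.80 against control and 0.78 against Cx3cr1 Cx43-/-, though the lowest Cd11bDTR library was just above the highest Cx3cr1 Cx43-/- library.

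Jph2 relative to Ryr2 stood at 36.3%, 26.4% and 23.4% in Cd11bDTR, 45.9%, 35.9% and 41.4% in Cx3cr1 Cx43-/- and 46.6%, 63.0% and 49.6% in control libraries. The difference of log2 ratios was -0.90 for Cd11bDTR and -0.36 for Cx3cr1 Cx43-/- against control, both without overlap, while Cd11bDTR and Cx3cr1 Cx43-/- overlapped (-0.53). Pln relative to Atp2a2, the inhibitor over its pump, stood at 22.4%, 28.1% and 29.4% in Cd11bDTR, 25.5%, 25.6% and 28.0% in Cx3cr1 Cx43-/- and 25.4%, 39.3% and 32.4% in control libraries, and all groups overlapped. Casq1 relative to Casq2 stood at 6.54%, 5.32% and 9.32% in Cd11bDTR, 9.28%, 7.77% and 10.2% in Cx3cr1 Cx43-/- and 7.56%, 19.4% and 9.87% in control libraries, with overlap. Slc8a1 relative to Atp2a2 stood at 0.572%, 0.310% and 1.18% in Cd11bDTR, 0.642%, 0.887% and 0.693% in Cx3cr1 Cx43-/- and 0.523%, 0.603% and 0.487% in control libraries. Cd11bDTR libraries spanned both other groups, and every Cx3cr1 Cx43-/- library was above every control library, a log2 difference of 0.45. In an exact two-sided permutation test 3 libraries against 3 cannot give a p below 0.1, which is what each pair of groups without overlap gave. Over the 18 tests (6 ratios in 3 comparisons) the adjusted p of these was 0.225.

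**Figure D4:**
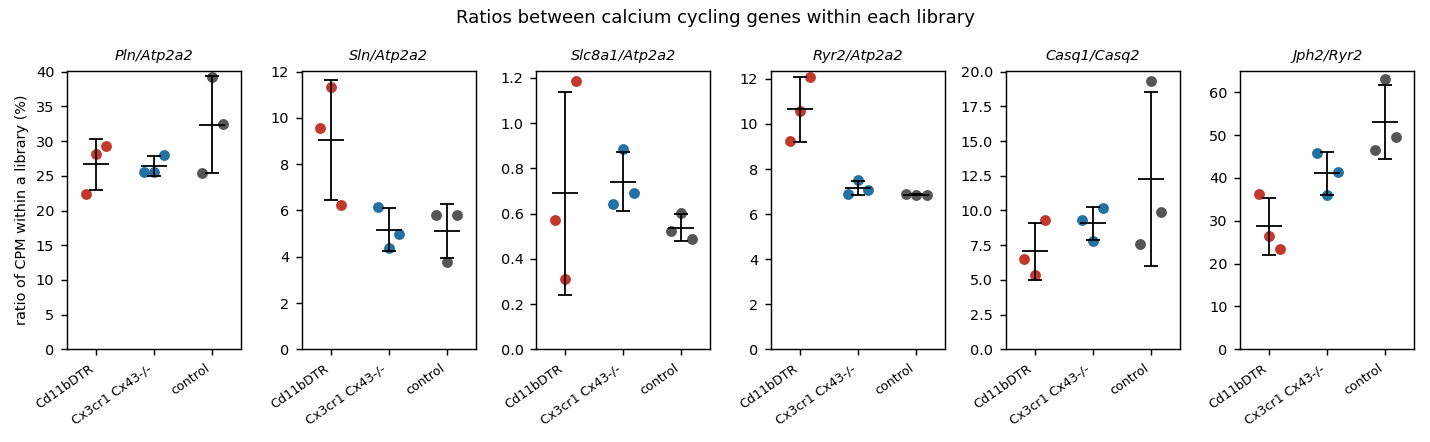
CPM of the first gene as a percent of the CPM of the second in the same library (y axes, from 0) for 6 pairs of calcium cycling genes, with Cd11bDTR in red, Cx3cr1 Cx43-/- in blue and control in grey; dots are libraries, and bars give the mean and SD of 3 libraries. Ryr2 over Atp2a2 is 9.26% to 12.1% in Cd11bDTR and 6.84% to 6.88% in control.

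Per kb of exon (GENCODE M21, of another build than the mm9 that the submitters' notes name), the order of levels was the same in all groups apart from 1 pair. Atp2a2 stood first, at 799 ± 232 CPM per kb in Cd11bDTR, 1554 ± 114 in Cx3cr1 Cx43-/- and 1400 ± 266 in control (SD, n = 3 each). Pln (396 ± 60.5, 785 ± 70.2 and 843 ± 25.6 CPM per kb in the same group order), Sln (298 ± 134, 319 ± 33.0 and 294 ± 110), Casq2, Hrc and Jph2 followed. Among Cd11bDTR libraries these neighbours overlapped in several places: Pln (330 to 449 CPM per kb) with Sln (147 to 401), Sln with Casq2 (87.3 to 163), and Hrc (42.0 to 85.3) with Jph2 (20.7 to 43.6). In control libraries Sln (173 to 388) overlapped with Casq2 (168 to 232), and Casq2 just met Hrc (141 to 168). Among these 6 genes no neighbours overlapped in Cx3cr1 Cx43-/- libraries. Casq1 and Ryr2 took the next places, Ryr2 ahead in Cd11bDTR (24.0 ± 3.77, with Casq1 at 6.91 to 14.8) and in Cx3cr1 Cx43-/- (32.3 ± 3.77 against 29.2 ± 2.77), Casq1 ahead in control (33.0 ± 10.8 against 27.8 ± 5.36). Their ranges overlapped in Cx3cr1 Cx43-/- and control, and not in Cd11bDTR, where Ryr2 (20.6 to 28.1) met Jph2 and Casq1 met Trdn (6.27 to 11.8). Trdn, at 9.79 ± 3.06 in Cd11bDTR, 13.0 ± 0.710 in Cx3cr1 Cx43-/- and 12.1 ± 1.42 in control, and Slc8a1, at 1.45 ± 0.689, 3.29 ± 0.816 and 2.11 ± 0.321, came last.

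Genes outside the set with the most similar profile over the 9 libraries were ranked by the same root mean square difference. Those nearest to Atp2a2 were Lmo7, Iars2 and Mfn2 (0.048 to 0.064), those nearest to Ryr2 were Eif3a, Inpp4a and Crim1 (0.055 to 0.068), and those nearest to Casq2 were Myom2, Rab10 and App (0.064 to 0.078). Trdn was closest to Sri, Adk and Fam192a (0.066 to 0.067); Sri encodes sorcin, a calcium-binding protein that modulates ryanodine receptors. Hrc was closest to Prpf40b, Tmem25 and Dynll2 (0.068 to 0.081), Jph2 to Kifc3, Dlst and Crhr2 (0.078 to 0.080), and Pln to Marcks, Cyb5b and Slc48a1 (0.075 to 0.095). Sln had Gmppb, Ubxn8 and Zfp653 nearest (0.106 to 0.125). Casq1 (Wdr91, Mvd and Itgb8, 0.169 to 0.203) and Slc8a1 (Serpinb8, Igtp and Fcer1g, 0.177 to 0.186) had no neighbour as close as the others had. Among the 10 themselves the farthest pair was Sln and Casq1, at 0.95.

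Other genes of the pathway were taken from 4 lists of 70 symbols, of which 66 were in the table and 59 were tested. In Cd11bDTR against control 18 of the 59 were called lower and 0 higher, with a median change of -0.46 against -0.49 for all genes, and 33.0% of all genes were called lower. The lists held 6 of 20 release genes, 4 of 15 uptake and store genes, 5 of 10 exchange and extrusion genes and 3 of 14 junction and tubule genes. The split depended on the scaling, with 13 lower and 5 higher with the common total (19.6% and 8.79% of all genes), 9 and 9 with median-of-ratios factors (12.8% and 13.3%), 11 and 6 with quantile normalization (14% and 12.2%), and 6 and 11 with the sarcomere sum (9.35% and 13.9%). Leaving out control library 1 left 10 calls and leaving out Cd11bDTR library 7 gave 30. The median change of all genes was then -0.40 and -0.62. In the comparison with Cx3cr1 Cx43-/-, 26 were lower and 1 higher, where 40.7% of all genes were called lower and 2.69% higher. The gene called higher was Tmem38b (30.37, 38.48 and 20.28 CPM in Cd11bDTR, 17.12, 15.90 and 18.60 CPM in Cx3cr1 Cx43-/-, limma log2 change 0.73 and adjusted p = 0.0186, and 1.11 to 1.32 with the rescalings), which encodes the store's potassium channel TRIC-B and was named after its value was seen. There the split was 16 lower and 6 higher with the common total (20.9% and 8.47% of all genes), 9 and 8 with median-of-ratios factors (12.7% and 13.3%), 11 and 6 with quantile normalization (13.8% and 12.1%), and 8 and 8 with the sarcomere sum (10.5% and 12.5%). In Cx3cr1 Cx43-/- against control limma, with the same pooled spread, called 0 of the 59, with 0 at an unadjusted p under 0.05.

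The release genes with the smallest p in Cd11bDTR were Camk2b and Camk2a, subunits of the calmodulin kinase II that phosphorylates ryanodine receptors and phospholamban, and Asph, whose transcripts include junctin. Camk2b had 5.13, 2.82 and 6.24 CPM in Cd11bDTR, 17.48, 17.97 and 19.52 CPM in Cx3cr1 Cx43-/- and 19.28, 23.22 and 17.29 CPM in control libraries. Its change against control was -2.02 ± 0.27 (limma adjusted p = 7.92e-06), and that of Camk2a was -1.86 ± 0.26 (adjusted p = 1.24e-05). Both were larger than the change of any of the 10 genes, and both were called under each of the 5 scalings. Camk2d, which encodes the main cardiac subunit, had 57.93 to 102.6 CPM in Cd11bDTR and 88.86 to 105.83 CPM in control libraries, and was named after its values were seen. These groups overlapped, and Camk2d was not called against control (-0.41 ± 0.22, limma adjusted p = 0.141). Asph had 54.19 to 85.19 CPM in Cd11bDTR and 119.04 to 138.42 CPM in control libraries, a change of -1.001 ± 0.21 (adjusted p = 0.000869) that was also called under each scaling.

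Among uptake and store genes, Tmem38a, which encodes the potassium channel TRIC-A of the store membrane, had 132.44, 74.38 and 61.36 CPM in Cd11bDTR, 190.58, 198.68 and 194.94 CPM in Cx3cr1 Cx43-/- and 204.55, 189.92 and 188.83 CPM in control libraries. The change against control was -1.20 ± 0.23 (limma adjusted p = 0.000508), called under each of the 5 scalings. Atp2a3, another SERCA gene found mainly outside muscle cells, changed by -1.27 ± 0.24 (adjusted p = 0.000432) to 5.13 to 6.00 CPM in Cd11bDTR, against 13.22 to 15.34 CPM in control libraries, and was called under each scaling. Akap7, an anchor of protein kinase A near phospholamban, changed by -0.82 ± 0.24 (adjusted p = 0.0117), which no rescaling kept. Srl, which encodes the store protein sarcalumenin, was among the 3 with the smallest p against Cx3cr1 Cx43-/- (-0.96 ± 0.25, adjusted p = 0.00434), a call lost with median-of-ratios factors (-0.39, adjusted p = 0.0843) and the sarcomere sum (-0.36, adjusted p = 0.0993).

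Of the exchange and extrusion genes, Slc24a2, a potassium-dependent sodium-calcium exchanger, changed by -1.11 ± 0.25 against control (limma adjusted p = 0.00168), with 5.45 to 7.62 CPM in Cd11bDTR and 13.07 to 18.67 CPM in control libraries. Atp2b2, a plasma membrane calcium pump, was low throughout, at 0.62 to 1.40 CPM in Cd11bDTR and 1.80 to 5.14 CPM in control libraries (-1.30 ± 0.38, adjusted p = 0.0108). Slc24a6, the older symbol of the mitochondrial sodium-calcium exchanger, changed by -0.95 ± 0.28 (adjusted p = 0.0112). Slc24a2 lost its call with the sarcomere sum (adjusted p = 0.0683), Atp2b2 with median-of-ratios factors (adjusted p = 0.0531), quantile normalization (adjusted p = 0.0789) and the sarcomere sum (adjusted p = 0.0953), and Slc24a6 with every rescaling.

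Junction and tubule genes were led by Cacna1d, the L-type calcium channel Cav1.3 of nodal pacemaker cells, with 4.18, 7.90 and 3.46 CPM in Cd11bDTR, 13.37, 21.24 and 14.67 CPM in Cx3cr1 Cx43-/- and 15.10, 16.47 and 13.26 CPM in control libraries. It changed by -1.52 ± 0.28 against control (limma adjusted p = 0.000383) and was called under each of the 5 scalings. Markers of the AV node moved with it, 8 of 10 being called lower in the same comparison, against 33.0% of all genes tested. Their part in it was not tested. Mtm1, the lipid phosphatase myotubularin, changed by -0.91 ± 0.27 (adjusted p = 0.0131) and Cmya5, a protein at the junction of store and Z-disc, by -0.73 ± 0.22 (adjusted p = 0.0129), of which Mtm1 lost its call with every rescaling (adjusted p from 0.0501 to 0.237) and Cmya5 with median-of-ratios factors (adjusted p = 0.137) and the sarcomere sum (adjusted p = 0.457).

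**Figure D5:**
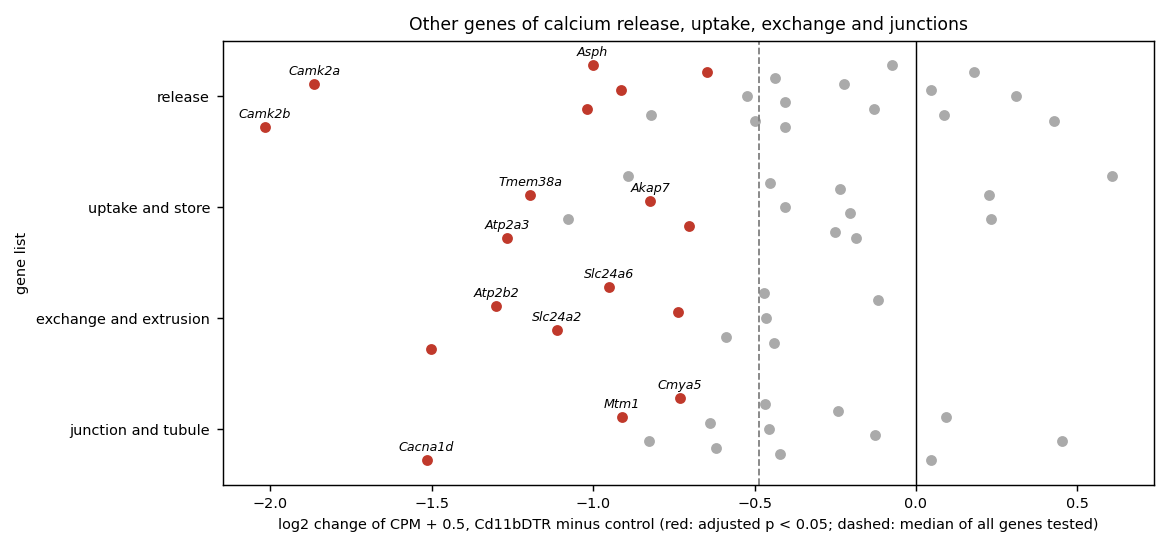
Log2 change of CPM + 0.5 in Cd11bDTR minus control (x axis) of the 59 tested genes of the 4 other pathway lists (rows), 1 dot per gene, red where the limma adjusted p is under 0.05; vertical scatter within a row has no meaning, and the dashed line is the median of all genes tested, -0.49. Red dots all lie left of 0, and the 3 called genes with the smallest p in each list are named.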

How the data were processed

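Gene expression was measured by RNA sequencing in 9 libraries of microdissected AV nodes. Directional libraries were made from DNase-treated total RNA, per the labels' protocols. The submitters' processing notes name STAR 2.3.0, HTSeq 0.6.0, edgeR and mm9 without saying what each was used for. The authors deposited CPM values for 34198 symbols. The listed genes hold 28.3% to 48.7% of the total that CPM scales to; what the rest of the denominator held is not stated. Whole reads were not rebuilt from the 2 deposited decimals, and no count model was fitted. No source used here says whether counting used strand; in GENCODE M21, exons of Atp2a2, Pln, Casq1 and Slc8a1 share bases with genes on the opposite strand. The promoter windows are of another build than the counts, and no coordinates were converted.

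With limma 3.58.1 in R 4.3.3, log2(CPM + 0.5) of the 12925 genes at 1 CPM or more in 3 or more libraries was fitted by group over all 9 libraries, with trended empirical Bayes. The 3 contrasts were tested two-sided with Benjamini-Hochberg adjustment over all genes tested. The fit was tested on simulated data with 200 changed genes. That simulation held no shift of whole libraries, so it does not bear on the choice of scaling. The limma p-values set a difference between groups against the spread between these libraries, pooled over the 3 groups and moderated over all genes tested. Ratios were compared by exact permutation (scipy 1.17.1). The members, the lists and the tests were chosen with earlier results of these data known. Named were all 10 members, up to 3 called genes with the smallest p per other list and comparison, and the 3 nearest profiles per member. Alternatives were 2 other pseudocounts (0.1 and 2), 2 other filters (none, and a mean of 5 CPM), 4 scalings, fits of 2 groups, library quality weights, robust empirical Bayes and each library left out. Figures were drawn with matplotlib 3.10.9.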

Additional observations from a re-analysis of the deposited data

How the results depend on the processing

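The direction of Casq1, Casq2, Hrc, Jph2, Pln, Atp2a2 and Slc8a1 in Cd11bDTR against both other groups held in all 20 alternatives. Some of these changes were smaller than their SE. Against control, Slc8a1 gave -0.10 ± 0.31 with the sarcomere sum and Atp2a2 -0.09 ± 0.17 with quantile normalization. The share of all genes whose direction held is not given here. Members called against control numbered 6, against 3 with no filter, and 5 to 7 with 1 library left out; against Cx3cr1 Cx43-/- they numbered 7, against 4 with median-of-ratios factors, 4 with the sarcomere sum, and 6 to 9 with 1 library left out. Other pathway genes called against control numbered 18, with 10 to 30 when 1 library was left out, and against Cx3cr1 Cx43-/- 27, with 17 by median-of-ratios factors, 17 by quantile normalization, 16 by the sarcomere sum, and 16 (without Cx3cr1 Cx43-/- library 5) to 36 (without Cd11bDTR library 7) when 1 library was left out. All genes tested moved too. Their median change against control was -0.20 with no filter and -0.62 to -0.33 with 1 library left out. Against Cx3cr1 Cx43-/- it was -0.26 with no filter and -0.70 to -0.42 with 1 library left out. The share of all genes called in these settings is not given here, so the counts are not read as particular to the members. Changes of sign were all in comparisons where the gene was not called on the deposited scale. In Cd11bDTR against control, in the order common total, median of ratios, quantile and sarcomere sum, Ryr2 gave 0.13, 0.29, 0.037 and 0.37, and Sln 0.31, 0.47, 0.24 and 0.54; Sln gave 0.13 with quality weights and -0.37 to 0.42 when 1 library was left out, and Trdn 0.14 with median of ratios and 0.21 with the sarcomere sum. Against Cx3cr1 Cx43-/- the median of ratios and the sarcomere sum gave 0.14 and 0.17 for Ryr2, 0.11 and 0.13 for Trdn, and 0.35 and 0.38 for Sln, which gave 0.17 with the common total, 0.039 by quantile, 0.066 with quality weights and -0.50 to 0.23 when 1 library was left out. In Cx3cr1 Cx43-/- against control Sln ran from -0.15 (without control library 2) to 0.43, and Casq1 from -0.33 to 0.11 (without control library 2), with 0.0056 by quality weights. The cause was not tested. The ratios kept their values within the spread between libraries with both other pseudocounts and with each library left out. No paired analysis was possible because the groups share no replicate numbers.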

Other observations

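Other cell types were followed by marker lists. Among all genes tested, 33.0% were called lower and 3.23% higher in Cd11bDTR than in control. Against Cx3cr1 Cx43-/- the shares were 40.7% and 2.69%. The counts below stand beside these shares. Schwann cell and neuron markers summed to 11.68 to 19.98 CPM in Cd11bDTR, 29.8 to 39.3 CPM in Cx3cr1 Cx43-/- and 39.4 to 53.8 CPM in control libraries, and all 5 tested members were called lower in Cd11bDTR than in control by limma, and 4 of 5 lower than in Cx3cr1 Cx43-/-. Adipocyte markers summed to 267 to 736 CPM in Cd11bDTR, against 267 to 303 CPM in Cx3cr1 Cx43-/- and 245 to 283 CPM in control libraries. The sum was highest in Cd11bDTR library 8, which had the lowest Casq1 and Slc8a1, a pairing that rests on 1 library. Fabp4 made up 507.52 CPM and Cfd 175.36 CPM of that sum. For adipocyte markers limma called 0 of 5 in Cd11bDTR against either group, with 1 at an unadjusted p under 0.05 in each comparison. Fibroblast markers summed to 2440 to 2457 CPM in Cd11bDTR, 3242 to 3367 CPM in Cx3cr1 Cx43-/- and 2527 to 2902 CPM in control libraries, with 0 of 6 called by limma in Cd11bDTR against control (0 at an unadjusted p under 0.05) and 3 of 6 called lower against Cx3cr1 Cx43-/-. Endothelial markers summed to 153 to 273 CPM in Cd11bDTR, 429 to 515 CPM in Cx3cr1 Cx43-/- and 276 to 440 CPM in control libraries, with 2 of 6 called lower in Cd11bDTR than in control and 5 of 6 lower than in Cx3cr1 Cx43-/-. The 2 of 6 were near the share of all genes. Smooth muscle markers summed to 330 to 481 CPM in Cd11bDTR, 345 to 446 CPM in Cx3cr1 Cx43-/- and 362 to 490 CPM in control libraries, with 3 of 6 called lower and 2 higher in Cd11bDTR against each of the other groups.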
